A study of Mus musculus with 10 samples.

Results

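9 genes of the *Sox* family were examined, chosen by name, and they made up 9 of the 54146 genes in the count table. Of these, 4 are known from neural progenitors (*Sox1*, *Sox2*, *Sox3* and *Sox21*), 3 from newly formed neurons (*Sox4*, *Sox11* and *Sox12*), and *Sox5* and *Sox6* belong to the SoxD group. RNA-seq was performed on the lumbar spinal cord, with the dorsal root ganglia left on, of 10 mouse embryos at E12.5 from 2 litters. Litter 1 gave 3 controls (+/+; Dot1lfl/fl) and 3 embryos labelled *Dot1l*-cKO (Wnt1cre2/+; Dot1lfl/fl), and litter 2 gave 2 controls (+/+; Dot1lfl/+) and 2 embryos labelled *Dot1l*-cKO (Wnt1cre2/+; Dot1lfl/fl). DOT1L is the methyltransferase that marks H3K79, and Cre was driven by *Wnt1* sequences, which are active in the dorsal neural tube, so only a share of the sampled cells could lose *Dot1l*. The strain background is given as B6.Cg-E2f1Tg(Wnt1-cre)2Sor/J for all 10. The number of floxed alleles in a control was thus 2 in litter 1 but 1 in litter 2. No control carried the transgene, so that an effect of the transgene and an effect of the deletion cannot be told apart.

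SOX1, SOX2 and SOX3 (SoxB1) are transcription factors that hold neural cells in the progenitor state and restrain proneural factors, whereas SOX21 (SoxB2), made in the same progenitors, acts largely as a repressor and favours differentiation. SOX4, SOX11 and SOX12 (SoxC) are made as cells leave the cell cycle and activate genes of the young neuron. SOX5 and SOX6 lack an activation domain of their own, bind beside other SOX proteins, and are best known as partners of SOX9 in cartilage, with further roles in neural subtypes and glia.

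Total counts on genes ranged from 40949585 to 61194291 in the controls, and from 54870771 to 68928443 in embryos with the *Dot1l*-cKO label. The genotype names below are those of the labels. All 9 *Sox* genes were among the 19773 genes kept for testing. *Dot1l* counted over the whole gene did not pass the test (log2 fold change 0.17 with a standard error of 0.06, Benjamini-Hochberg adjusted p = 0.130 in the quasi-likelihood test of edgeR), so these counts do not check the genotype. In litter 2 alone *Dot1l* was higher in the embryos with that label (0.29, Benjamini-Hochberg adjusted p = 0.0240 by edgeR), and in litter 1 alone it was not called (0.10, adjusted p = 0.630). *Xist*, the RNA of the inactive X chromosome, was at 6.00 and 6.79 CPM (counts relative to the TMM-normalized library size) in the 2 embryos labelled *Dot1l*-cKO of litter 2 and at 499 to 890 CPM in the other 8 embryos. Within litter 2 the genotype and this difference in *Xist*, a marker of sex, therefore cannot be told apart for any gene, the X-linked *Sox3* included. The 2 embryos with low *Xist* also enter the genotype fits over both litters, in which all controls had high *Xist*. Among the embryos labelled *Dot1l*-cKO, litter and *Xist* cannot be told apart either. Nothing in the labels names the embryos as more than separate samples of 2 litters, and the p-values measure the spread between them. In whole tissue, fewer cells of a type and less RNA per cell cannot be told apart.

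All SOX proteins bind DNA through the HMG box. The coding bases at the start of this box are shown for the 9 genes to compare the groups. Near-identical genes could also share reads. Each line gives 60 bases of the coding strand (5′ to 3′, GRCm38), with capitals where the base differs from *Sox2*.
Sox1 (chr8:12396508-12396567, plus strand): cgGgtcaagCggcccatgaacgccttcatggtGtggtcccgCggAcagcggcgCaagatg
Sox2 (chr3:34650539-34650598, plus strand): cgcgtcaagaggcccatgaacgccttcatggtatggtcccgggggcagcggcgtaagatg
Sox3 (chrX:60892945-60893004, minus strand): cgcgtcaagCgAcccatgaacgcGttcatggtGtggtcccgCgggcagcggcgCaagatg
Sox21 (chr14:118235558-118235617, minus strand): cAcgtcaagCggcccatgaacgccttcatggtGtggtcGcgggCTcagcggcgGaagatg
Sox4 (chr13:28952791-28952850, minus strand): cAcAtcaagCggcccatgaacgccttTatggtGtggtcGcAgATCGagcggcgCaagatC
Sox11 (chr12:27342208-27342267, minus strand): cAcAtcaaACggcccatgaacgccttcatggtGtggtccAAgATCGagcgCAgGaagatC
Sox12 (chr2:152397525-152397584, minus strand): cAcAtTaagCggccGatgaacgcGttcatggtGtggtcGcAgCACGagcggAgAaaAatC
Sox5 (chr6:143841223-143841282, minus strand): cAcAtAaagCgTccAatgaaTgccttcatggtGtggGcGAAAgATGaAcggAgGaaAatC
Sox6 (chr7:115489712-115489771, minus strand): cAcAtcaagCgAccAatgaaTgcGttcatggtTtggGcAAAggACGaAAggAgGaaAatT
*Sox1* and *Sox3* matched *Sox2* at 54 of the 60 bases and *Sox21* at 53. The SoxC genes matched it at 47 (*Sox4*), 45 (*Sox11*) and 43 (*Sox12*) bases, and *Sox5* and *Sox6* at 39 each. Matches among the other genes did not always follow the groups. *Sox21* and *Sox4* matched at 51 bases, as did *Sox4* and *Sox12*, while *Sox11* and *Sox12* matched at 49. Over whole transcripts the longest identical stretch was 48 bases, between *Sox4* and *Sox11*, followed by 45 bases between *Sox1* and *Sox3*. These stretches are shorter than the read length that the authors give. Of the genes, 7 have a single exon block, and *Sox5* and *Sox6* have 25 each.

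Per length, the neuronal *Sox11* was the highest of the 9 genes and *Sox5* the lowest. *Sox11* was at 553 ± 66.9 TPM (counts per exon length, scaled to 1 fixed total per embryo, SD, n = 10), above *Sox2*, the main SoxB1 gene, at 247 ± 45.9 TPM in 10 of 10 embryos. *Sox12* (204 ± 22.8 TPM) and *Sox4* (191 ± 26.4 TPM) followed. These levels lay close together, since *Sox2* exceeded *Sox12* in 8 of 10 embryos and *Sox12* exceeded *Sox4* in 8 of 10. A gap separated this upper group from *Sox21* (37.9 ± 7.76 TPM), which was below *Sox4* in every embryo. *Sox3* was at 28.5 ± 13.8 TPM, *Sox6* at 21.4 ± 4.95, *Sox1* at 15.8 ± 2.18 and *Sox5* at 8.19 ± 0.635 TPM. *Sox21* was above *Sox3* in 9 embryos and *Sox3* above *Sox6* in 7, and the 3 embryos in which *Sox6* was above *Sox3* were all of litter 1. *Sox2* supplied 71.6% to 78.3% of the summed TPM of the progenitor genes and *Sox11* 51.4% to 65.1% of that of the neuronal genes. The lengths came from the union of annotated exons, and for *Sox5* and *Sox6*, with 14 and 16 annotated transcripts, this length exceeds that of any single transcript. Of the exon bases, 2616 of 4795 in *Sox4* and 713 in *Sox21* are shared with a gene on the opposite strand. The places of *Sox4* and *Sox21* in this order are uncertain to that extent.

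**Figure D1:**
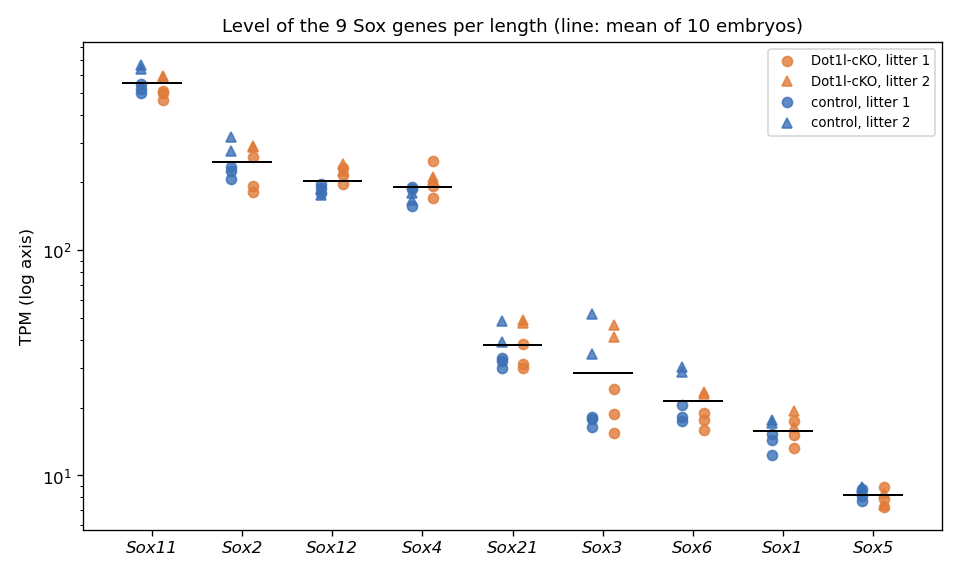
Level of each *Sox* gene per length, in TPM on a log axis, with 1 point per embryo, colour for genotype, shape for litter and a line at the mean of 10 embryos. *Sox11*, *Sox2*, *Sox12* and *Sox4* formed an upper group with means from 191 to 553 TPM, and the other genes had means from 8.19 to 37.9 TPM.

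The first comparison asked whether the genotype moved the progenitor and neuronal genes within litters. Of the 9 genes, 1 passed the test, the neuronal *Sox12*, which was higher in the embryos labelled *Dot1l*-cKO by 1.21-fold, and none was lower. At an unadjusted p under 0.05 there were 4 of the 9, against 21.7% of all tested genes. Over all tested genes 1.90% were called higher and 1.09% lower. None of the 4 progenitor genes passed, and their median log2 fold change of 0.10 compares with -0.01 over all tested genes. Log2 fold changes and p-values are from the quasi-likelihood test of edgeR with the litter in the model, and the p-values were adjusted by Benjamini-Hochberg over all tested genes.

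*Sox12* (ENSMUSG00000051817.8, chr2:152393611-152398063, minus strand) encodes a SoxC factor that activates transcription less strongly than SOX4 and SOX11. It was at 189, 203 and 206 CPM in the litter 1 controls and 231, 247 and 208 CPM in their littermates labelled *Dot1l*-cKO. In litter 2 the controls were at 202 and 196 CPM and the *Dot1l*-cKO embryos at 244 and 271 CPM. Every embryo labelled *Dot1l*-cKO lay above every control, as for 1.01% of all tested genes, although the gap between 206 and 208 CPM was small. The log2 fold change was 0.27 (standard error 0.06, 95% interval 0.15 to 0.39, adjusted p = 0.0318). The direction held in all 10 fits that left out 1 embryo (log2 fold change 0.23 to 0.31), but the call was lost in 6 of them. The adjusted p, by edgeR with Benjamini-Hochberg adjustment, was then 0.0847 without control 4 of litter 1, 0.0778 without control 5 of litter 2 and 0.0733 without control 7 of litter 2. It was 0.0688 without the embryo labelled *Dot1l*-cKO number 2 of litter 1, 0.0509 without number 3 of litter 1 and 0.0997 without number 6 of litter 2.

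*Sox4*, which acts with *Sox11* in young neurons, was at 178, 220.0 and 211 CPM in the litter 1 controls and 224, 285 and 194 CPM in the *Dot1l*-cKO embryos, which overlapped. In litter 2 the controls were at 209 and 201 CPM and the others at 240.1 and 258 CPM, without overlap. Its log2 fold change was 0.24 (standard error 0.09, 95% interval 0.05 to 0.42, adjusted p = 0.137, edgeR with Benjamini-Hochberg adjustment), and it did not pass. Without the embryo labelled *Dot1l*-cKO number 7 of litter 1, at 194 CPM, the adjusted p was 0.0272, in the same test.

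*Sox11*, the most abundant of the 9, had values on the other side of 0. The litter 1 controls were at 977, 1100.2 and 1019 CPM and the *Dot1l*-cKO embryos at 935, 1008 and 984 CPM. In litter 2 these were 1348 and 1329.8 CPM against 1203 and 1245 CPM. The groups overlapped in litter 1 and not in litter 2. The log2 fold change was -0.10 (standard error 0.05, 95% interval -0.20 to -0.00, adjusted p = 0.213, edgeR with Benjamini-Hochberg adjustment). With *Sox4* and *Sox12* at higher values and *Sox11* at lower ones, *Sox11* made up 57.6% to 59.6% of the neuronal TPM in litter 1 controls and 51.4% to 57.6% in their littermates labelled *Dot1l*-cKO, and in litter 2 it made up 64.6% and 65.1% against 58.0% and 56.6%.

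*Sox2*, required for progenitor maintenance, was at 101, 112 and 113 CPM in the litter 1 controls and 90.4, 127 and 94.4 CPM in the *Dot1l*-cKO embryos. In litter 2 the values were 138 and 165 CPM in controls and 144 and 151 CPM in the *Dot1l*-cKO embryos. The groups overlapped in both litters, and the log2 fold change of -0.05 (95% interval -0.23 to 0.13, adjusted p = 0.764, edgeR with Benjamini-Hochberg adjustment) became 0.00 without the embryo labelled *Dot1l*-cKO number 2 of litter 1. *Sox1*, a SoxB1 gene of progenitors and some neurons, was at 14.1, 17.8 and 16.3 CPM against 17.6, 20.2 and 15.1 CPM in litter 1, and at 20.6 and 20.8 CPM against 19.5 and 23.7 CPM in litter 2. *Sox3*, the X-linked SoxB1 gene, was at 8.04, 9.06 and 8.64 CPM against 9.34, 11.9 and 7.59 CPM in litter 1, and at 17.3 and 26.9 CPM against 20.8 and 24.3 CPM in litter 2. For these genes too the genotypes overlapped in each litter. *Sox21*, the SoxB2 gene, was at 27.0, 30.4 and 28.9 CPM against 28.8, 34.6 and 27.2 CPM in litter 1, and at 36.1 and 46.2 CPM against 44.0 and 47.0 CPM in litter 2. The log2 fold changes were 0.10 for *Sox1* (95% interval -0.09 to 0.30), 0.11 for *Sox3* (-0.17 to 0.38) and 0.10 for *Sox21* (-0.07 to 0.27), and no interval left out 0.

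Of the SoxD genes, *Sox6* was at 63.7, 62.6 and 71.7 CPM in litter 1 controls and 56.7, 67.0 and 61.9 CPM in the *Dot1l*-cKO embryos. In litter 2 it was at 109.6 and 106 CPM against 85.4 and 86.9 CPM. The values overlapped in litter 1 and were apart in litter 2. Over both litters the log2 fold change was -0.19 (standard error 0.06, 95% interval -0.32 to -0.06, adjusted p = 0.103, edgeR with Benjamini-Hochberg adjustment), and without the embryo labelled *Dot1l*-cKO number 3 of litter 1 the adjusted p of the same test was 0.0483. *Sox5* was at 26.1, 27.9 and 29.4 CPM against 25.1, 30.6 and 26.9 CPM in litter 1 and at 30.7 and 32.1 CPM against 29.4 and 27.0 CPM in litter 2, with a log2 fold change of -0.07 (95% interval -0.21 to 0.07). Among the litter 1 embryos labelled *Dot1l*-cKO, number 3 was the highest of 3 for all 9 *Sox* genes, and was the highest for 34.6% of all tested genes. Control 4 of litter 1 was the lowest of 3 for 8 of the 9 (32.3% of all genes). In litter 2, of the pair labelled *Dot1l*-cKO, number 6 was the higher for 8 of the 9 (51.3%).

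**Figure D2:**
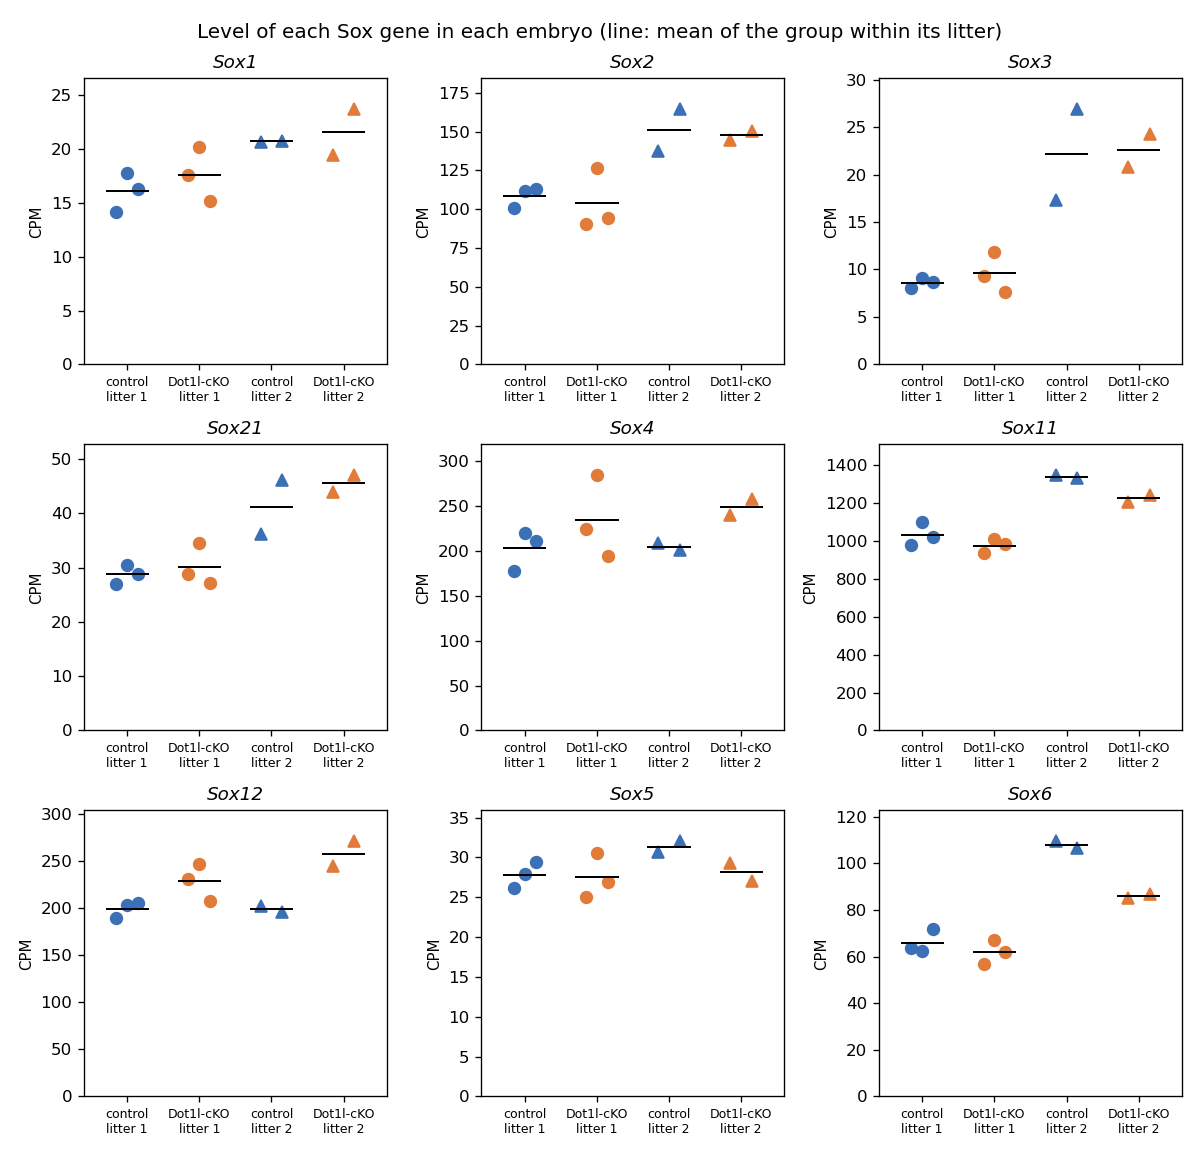
CPM of each *Sox* gene in each embryo, with 1 panel per gene, 1 column per genotype within litter, 1 point per embryo and a line at the mean. *Sox12* was at 189 to 206 CPM in the 5 controls and at 208 to 271 CPM in the 5 *Dot1l*-cKO embryos, and *Sox3* was higher in all embryos of litter 2 than in litter 1.

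The litters were then tested apart. In litter 1 none of the 9 genes passed by edgeR (1 had an unadjusted p under 0.05, as did 14.1% of all genes), where 0.00519% of tested genes were called higher and 0.0571% lower. In litter 2, *Sox12* (0.38 on the log2 scale, standard error 0.07, adjusted p = 0.00801) and *Sox4* (0.29, standard error 0.07, adjusted p = 0.0267) rose and *Sox6* (-0.32, standard error 0.06, adjusted p = 0.0126) fell, all by edgeR with Benjamini-Hochberg adjustment, and 3.98% of tested genes were called higher and 1.16% lower. These litter 2 calls compare the embryos with low *Xist* with those with high *Xist*. In litter 1 the log2 fold changes of the same genes were 0.20 for *Sox12* (adjusted p = 0.243), 0.21 for *Sox4* (adjusted p = 0.502) and -0.09 for *Sox6* (adjusted p = 0.666) in the same test. In litter 2, *Sox4* and *Sox12* were higher without overlap (24.2% of all tested genes) and *Sox11*, *Sox5* and *Sox6* lower without overlap (27.5%), and in litter 1 *Sox12* alone of the 9 was higher without overlap (9.10%). The difference of the genotype effect between litters was not called for any of the 9 genes by edgeR, none of them had an unadjusted p under 0.05 (8.05% of all genes did), and DESeq2 called none either. It was called for 0.00489% of genes in each direction. It was -0.23 for *Sox6* (standard error 0.11, 95% interval -0.47 to 0.01, adjusted p = 0.618), 0.18 for *Sox12* (-0.06 to 0.41, adjusted p = 0.686) and 0.07 for *Sox4* (-0.32 to 0.46, adjusted p = 0.930), by edgeR with Benjamini-Hochberg adjustment. The litters were therefore not shown to differ in the genotype effect on these genes.

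**Figure D3:**
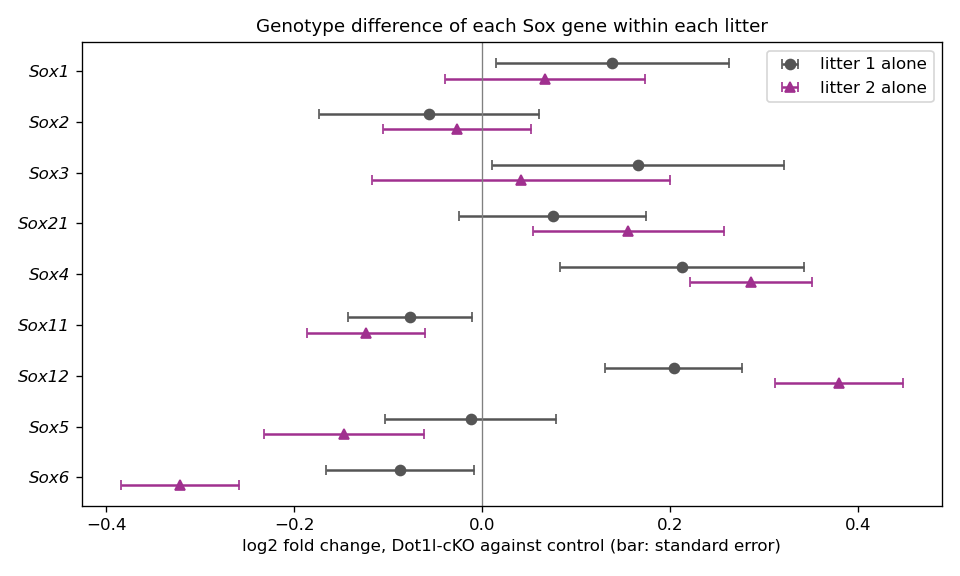
Log2 fold change of each *Sox* gene between embryos labelled *Dot1l*-cKO and controls within each litter, with bars for the standard error of the edgeR fit. *Sox12* and *Sox4* lay to the right of 0 and *Sox6* and *Sox11* to the left in both litters, with *Sox6* at -0.09 in litter 1 and -0.32 in litter 2.

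The second comparison set litter 2 against litter 1 with the genotype in the model. Of the 9 genes, 6 were higher in litter 2 and none was lower. These were all 4 progenitor genes, 1 of 3 neuronal genes (*Sox11*) and 1 of 2 SoxD genes (*Sox6*). Over all tested genes 16.9% were called higher and 17.8% lower, and with scaling to library size alone these were 2546 and 4306 genes in place of 3337 and 3521. The floxed-allele number of the controls differs between the litters, and litter, any difference in stage and any difference in dissection cannot be told apart.

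Among the progenitor genes, *Sox3* had a log2 fold change of 1.30 (standard error 0.13, adjusted p = 5.6e-06), from 7.59 to 11.9 CPM in litter 1 to 17.3 to 26.9 CPM in litter 2, a fold of 2.46. *Sox21* (0.56, standard error 0.08, adjusted p = 1.2e-04), *Sox2* (0.49, standard error 0.08, adjusted p = 4.6e-04) and *Sox1* (0.33, standard error 0.09, adjusted p = 0.0111) rose less, by the same edgeR test with Benjamini-Hochberg adjustment. All embryos of litter 2 lay above all of litter 1 for *Sox2*, *Sox3* and *Sox21*, and likewise for *Sox11* and *Sox6* (11.9% of all tested genes), whereas *Sox1* overlapped, with 1 embryo of litter 1 at 20.2 CPM and 1 of litter 2 at 19.5 CPM. *Sox3* was higher in litter 2 among the controls too, so the rise was present in embryos with high *Xist*.

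Of the neuronal genes, *Sox11* rose by a log2 fold change of 0.35 (standard error 0.05, adjusted p = 5.0e-05, edgeR with Benjamini-Hochberg adjustment). *Sox4* (0.05, 95% interval -0.14 to 0.24) and *Sox12* (0.09, 95% interval -0.04 to 0.21) did not pass. *Sox6* had a log2 fold change of 0.59 (standard error 0.06, adjusted p = 8.2e-06, edgeR with Benjamini-Hochberg adjustment), a fold of 1.51, and *Sox5* one of 0.10 (95% interval -0.04 to 0.25). Within the controls the same 6 genes passed (background 11.6% higher), with log2 fold changes from 0.37 for *Sox1* to 1.37 for *Sox3*. Within the embryos labelled *Dot1l*-cKO 5 of them passed (background 8.92%), and *Sox1* did not (0.30, adjusted p = 0.171, edgeR with Benjamini-Hochberg adjustment). In that comparison *Xist* had a log2 fold change of -6.45, so litter and *Xist* cannot be told apart. Leaving out the embryo labelled *Dot1l*-cKO number 6 of litter 2 also ended the call of *Sox1* (adjusted p = 0.0563, same test).

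**Figure D4:**
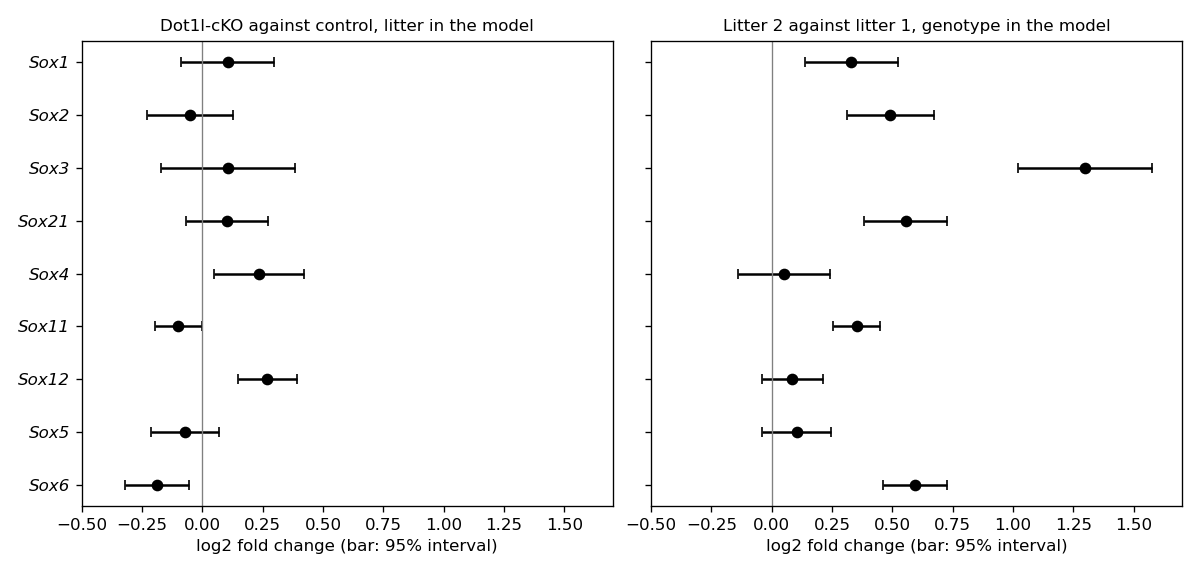
Log2 fold change of each *Sox* gene by genotype (left, litter in the model) and by litter (right, genotype in the model), with bars for the 95% interval. By genotype all 9 estimates lay between -0.19 and 0.27, and by litter *Sox3* reached 1.30.

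The balance of the classes was described per embryo as the mean log2 CPM of the 4 progenitor genes minus that of the 3 neuronal genes. It was -3.76, -3.75 and -3.76 in the litter 1 controls and -3.83, -3.69 and -3.87 in their littermates labelled *Dot1l*-cKO, so the controls lay within the range of the latter. In litter 2 it was -3.40 and -3.04 in controls and -3.37 and -3.30 in the embryos labelled *Dot1l*-cKO. The genotype difference of the means was -0.04 in litter 1 and -0.115 in litter 2. The pooled SD of single embryos within genotype and litter was 0.118. Between litters the balance was higher in litter 2 by 0.54 in controls and 0.46 in the embryos labelled *Dot1l*-cKO. Without *Sox3* the litter difference, on average 0.50, was 0.29. No test was made of this balance, which is a sum over chosen genes.

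**Figure D5:**
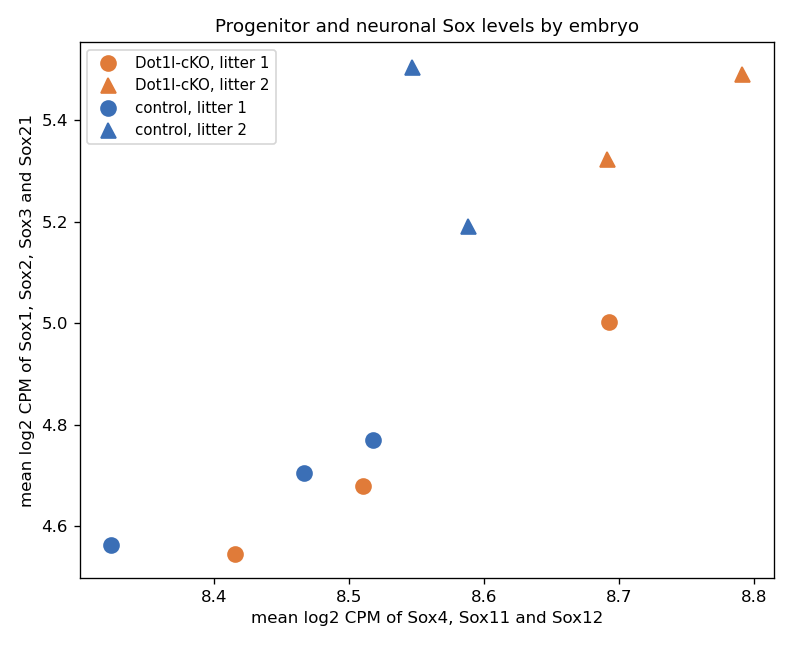
Mean log2 CPM of the 4 progenitor *Sox* genes against that of the 3 neuronal *Sox* genes, with 1 point per embryo, colour for genotype and shape for litter. The 4 embryos of litter 2 lay above the 6 of litter 1 on the progenitor axis, and the neuronal axis did not separate them.

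The SoxC genes included the gene called by genotype, and the 250 bases before the RefSeq start of each (GRCm38.p6, 5′ to 3′ on the gene's strand) are shown because *Sox12* and *Sox4* had higher values and *Sox11* lower ones in the embryos labelled *Dot1l*-cKO. Capitals mark 3 motifs on either strand, the CCAAT box, the TATA box in its form TATAAA, and the GC box written GGGCGG.
Sox12 (chr2:152398047-152398296, minus strand): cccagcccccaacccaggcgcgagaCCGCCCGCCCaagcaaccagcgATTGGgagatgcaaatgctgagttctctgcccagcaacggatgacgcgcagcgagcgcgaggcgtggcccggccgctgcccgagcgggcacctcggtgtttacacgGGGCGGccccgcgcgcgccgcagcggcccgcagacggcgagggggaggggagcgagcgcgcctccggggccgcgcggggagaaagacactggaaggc
Sox4 (chr13:28953700-28953949, minus strand): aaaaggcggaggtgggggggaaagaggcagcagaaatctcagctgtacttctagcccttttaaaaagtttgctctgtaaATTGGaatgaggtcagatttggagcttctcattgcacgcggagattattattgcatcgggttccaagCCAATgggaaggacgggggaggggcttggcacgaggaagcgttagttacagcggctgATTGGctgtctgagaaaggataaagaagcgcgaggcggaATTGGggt
Sox11 (chr12:27342719-27342968, minus strand): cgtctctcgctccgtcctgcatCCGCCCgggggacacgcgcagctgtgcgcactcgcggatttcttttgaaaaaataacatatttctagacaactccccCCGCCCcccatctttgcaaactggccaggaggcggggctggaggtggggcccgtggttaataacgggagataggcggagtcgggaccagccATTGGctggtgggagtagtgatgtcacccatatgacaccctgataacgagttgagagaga
*Sox4* held 4 CCAAT motifs and no GGGCGG, *Sox11* held 1 and 2, and *Sox12* held 1 and 3, of which a pair of GGGCGG motifs overlapped. None of the 3 held TATAAA. Among 32851 promoter windows of the same length, 33.8% held CCAAT, 12.4% TATAAA and 32.7% GGGCGG. Motif matches are descriptions of letters only. Promoter sequences of 8 of the 9 genes were in the RefSeq table.

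Several of the genes share their locus with a noncoding gene. *Sox2ot*, the long noncoding RNA in whose intron *Sox2* lies, was at 18.5, 21.2 and 20.9 CPM in litter 1 controls and 16.4, 18.3 and 18.3 CPM in their littermates labelled *Dot1l*-cKO, and at 27.6 and 29.1 CPM against 20.9 and 18.8 CPM in litter 2. In litter 2 the genotypes did not overlap, and 27.5% of all tested genes were lower without overlap there. In litter 1 the gap between 18.5 and 18.3 CPM was small. *Sox2ot* fell by 0.32 on the log2 scale (standard error 0.08, adjusted p = 0.0417, edgeR with Benjamini-Hochberg adjustment), while *Sox2* did not pass the test. The call of *Sox2ot* was lost in 8 of the 10 fits without 1 embryo (adjusted p up to 0.131, same test). *Gm4675*, antisense to *Sox21* and sharing 713 exon bases with it, was higher in litter 2 (log2 fold change 0.75, adjusted p = 0.00145, edgeR with Benjamini-Hochberg adjustment), as *Sox21* was. *Gm26735* shares 2616 of the 4795 exon bases of *Sox4* on the opposite strand. It was not kept by the filter and had 0 counts in every control. How the counting treated strand is given only as a default of the workflow, and the kit does not mark strand, so reads over shared bases cannot be told apart and the values of *Sox4* and *Sox21* are uncertain to that extent. *Sox5* shares 1330 exon bases with the antisense gene *Sox5os1*, and *Sox1* shares 86 with *Gm25239*, a miRNA gene on its own strand. Both of these partners had 0 counts in every embryo.

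Other genes of progenitors and neurons were counted from lists, to be read against the shares of all tested genes called (by genotype 1.90% higher and 1.09% lower, by litter 16.9% and 17.8%). Of 12 progenitor genes, 0 were higher and 1 lower by genotype, with a median log2 fold change of -0.07. The gene that fell was *Prom1*, a membrane protein of progenitors (log2 fold change -0.23, adjusted p = 0.0455). Of 6 proliferation genes 2 fell, *Mki67* (-0.49, adjusted p = 0.0376) and *Pcna* (-0.19, adjusted p = 0.0492), by edgeR with Benjamini-Hochberg adjustment. The calls of *Mki67*, *Prom1* and *Pcna* were lost in 6, 8 and 9 of the 10 fits without 1 embryo. None of 6 proneural genes, 12 early neuron genes and 4 class III POU genes (partners of SoxB1) passed by genotype over both litters. In litter 2 alone the progenitor gene *Hes5* rose (0.37, adjusted p = 0.0281, same test as for the others) and *Prom1* fell, where 3.98% of all genes were called higher and 1.16% lower. Of the proliferation genes *Top2a*, *Ccnb1* and *Pcna* fell there (log2 fold change -0.36, -0.31 and -0.25). In the same litter *Neurod1* (0.34, adjusted p = 0.0215) and *Rbfox3* (0.50, adjusted p = 0.00231) rose and *Pou3f2* (-0.34, adjusted p = 0.0108) fell, by edgeR with Benjamini-Hochberg adjustment, and none of these 5 lists had a call in litter 1 alone. *Tead2*, a known target of SoxC factors, had a log2 fold change of -0.12 (adjusted p = 0.460, edgeR with Benjamini-Hochberg adjustment). By litter, 9 of 12 progenitor genes rose and 1 fell (median 0.49), with *Nes* at 0.81, *Rfx4* at 0.71 and *Slc1a3* at -0.63. All 6 proliferation genes (median 1.04), 5 of 6 proneural genes (median 1.08), all 4 class III POU genes (median 0.54) and *Tead2* (0.70, adjusted p = 3.3e-05, edgeR with Benjamini-Hochberg adjustment) were also higher in litter 2. Of 12 early neuron genes 2 rose and 5 fell, among them *Mapt* (-0.49) and *Rbfox3* (-0.50). Over all tested genes the median was -0.02 by litter.

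Genes of the attached tissues were counted in the same way, against the same shares of all genes. The summed level of 7 dorsal root ganglion neuron genes was 464 to 516 CPM in litter 1 controls, 318 to 387 CPM in litter 1 embryos labelled *Dot1l*-cKO, 196 to 200.1 CPM in litter 2 controls and 236 to 269.7 CPM in their littermates labelled *Dot1l*-cKO. Of the 7, 5 fell in litter 2, and by genotype 1 fell (*Runx3*, log2 fold change -0.71, adjusted p = 0.0483, edgeR with Benjamini-Hochberg adjustment). The call of *Runx3* was lost in 8 of the 10 fits without 1 embryo and in litter 2 alone (-0.10, adjusted p = 0.766, against -1.09 in litter 1, same test). In litter 1 alone 2 of the 7 genes fell and 0 rose, and in litter 2 alone 4 rose, among them *Avil* (1.08) and *Runx1* (0.75), and 0 fell (over all genes 0.00519% higher and 0.0571% lower in litter 1 alone, 3.98% and 1.16% in litter 2 alone), while the difference between litters was called by edgeR for 0 of the 7 (log2 difference 0.61 to 0.99) although all 7 had an unadjusted p under 0.05 (8.05% of all genes did). The 4 Schwann cell precursor genes summed to 96.6 to 153 CPM in litter 1 and 76.5 to 124 CPM in litter 2, 1 of them (*Erbb3*) fell in litter 2, and by genotype none passed over both litters in the same test, while 3 rose in litter 2 alone. Cartilage genes, which matter for *Sox5* and *Sox6*, summed to 168 to 338 CPM in litter 1 and 202 to 274 CPM in litter 2, with 2 of 6 tested lower in litter 2 and *Cnmd* higher by genotype (0.46, adjusted p = 0.0492, same test). The call of *Cnmd* was lost in 8 of the 10 fits without 1 embryo and in litter 1 alone (0.27, adjusted p = 0.399, same test), while in litter 2 alone both *Cnmd* (0.77, adjusted p = 0.0151) and *Col2a1* (0.39, adjusted p = 0.00798) rose, by edgeR with Benjamini-Hochberg adjustment. Of 7 mesenchyme genes 2 rose and 1 fell in litter 2 and of 6 endothelial genes 1 fell, whereas among the controls alone 1 mesenchyme gene rose and 4 fell and all 6 endothelial genes fell (over all genes 11.6% higher and 12.9% lower in that comparison). None of either list passed by genotype over both litters, and in litter 2 alone *Col1a1* rose (0.71, adjusted p = 0.00107, same test). The part of these tissues in the *Sox* values was not tested.

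The genes whose pattern over the 10 embryos was most like that of *Sox2*, *Sox11* and *Sox5*, the most abundant gene of the progenitor and neuronal classes and the lowest SoxD gene, were found by the root mean square difference of centred log2 CPM among 11026 genes. For *Sox2* these were *Mis18a* (0.0608), *Arl6ip6* (0.0619) and *Nudcd2* (0.0690). For *Sox11* they were *Dnmt1* (0.0361), the maintenance DNA methyltransferase, *F2r* (0.0387) and *Cbx1* (0.0388), and for *Sox5* *Myo1e* (0.0454), *Gga2* (0.0502) and *Ercc6* (0.0536). The SD of log2 CPM over the embryos was 0.298 for *Sox2*, 0.197 for *Sox11* and 0.115 for *Sox5*.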

How the data were processed

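RNA-seq was performed on 10 embryos. The authors deposited raw read counts per gene, made with TrimGalore, STAR on mm10 and featureCounts on a GENCODE annotation within snakePipes at its default parameters. What these set for strand is not spelled out in the sources used here. Genes were placed with a GENCODE annotation of GRCm38 (54079 of 54146 rows matched). From the deposited counts, 19773 genes passed edgeR's default filter and were tested in R 4.3.3 with edgeR 4.0.16 (quasi-likelihood test, TMM, litter and genotype in the model, Benjamini-Hochberg adjustment at 0.05). Standard errors were the log2 fold change divided by the square root of F. DESeq2 1.42.0, limma-voom (limma 3.58.1), other scalings, no filter, each litter alone and fits without 1 embryo were alternatives. CPM used TMM, log2 CPM a prior count of 2, and TPM the union exon length. The scripts were tested on simulated data.

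The members and gene lists were chosen with earlier results of these data known. Named were all members, their neighbours within 10 kb that passed the filter, *Dot1l* and *Xist* as checks, up to 4 list genes with the lowest adjusted p, and the 3 genes most like a member with a mean log2 CPM of at least 3. *Sox2ot* and 5 list genes were followed through the genotype alternatives. No pair of embryos of 1 group agreed within sampling noise. The chi-square per gene was 9.31 to 26.2 for pairs within a litter and 40.0 to 85.2 for pairs across litters. Some list genes are not reported here and were left out of the counts and sums. Embryos are numbered as in their labels.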

Additional observations from a re-analysis of the deposited data

How the results depend on the processing

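By genotype, 1 of the 9 *Sox* genes was called, against 3 with no filter on low counts, 0 with no litter in the model, 0 in litter 1 alone, 3 in litter 2 alone and 0 to 2 in the fits without 1 embryo. *Sox12* kept its call with DESeq2, limma-voom, other size factors, library size alone and no filter (adjusted p 9.2e-06 to 0.0354), and lost it with no litter in the model (0.327). Over all genes 376 were higher and 215 lower by edgeR, 852 and 640 by DESeq2, 1346 and 855 with no filter, 0 and 0 without the litter, and 36 and 17 to 963 and 414 in fits without 1 embryo (embryo 6 of litter 2 and embryo 7 of litter 1, both labelled *Dot1l*-cKO). For the difference between litters, 1 gene passed in each direction by edgeR, 85 and 7 by DESeq2, 388 and 49 with no filter, and 91 and 4 without the embryo labelled *Dot1l*-cKO number 3 of litter 1, with none of the 9 *Sox* genes among them in any. By litter, 5 or 6 of the 9 genes were called in every alternative run.

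The genotype difference of the progenitor to neuronal balance was -0.08, and 0.00 (0.0041) when CPM was summed before the log, and between -0.17 and 0.012 without 1 embryo, the last without control 7 of litter 2. The litter difference of 0.50 was 0.28 with summed CPM and 0.29 without *Sox3*. The sign turned for *Sox2* by genotype (range -0.14 to 0.0048 without 1 embryo, the last without embryo 2 of litter 1), and for *Sox4* by litter (-0.0077 to 0.12) and in the difference between litters (-0.046 to 0.24), both without embryo 7 of litter 1. These embryos were labelled *Dot1l*-cKO, and none of the values was called. Of 471 values of the 9 *Sox* genes and 6 other named genes under an alternative, 388 kept direction and side of the threshold, 74 lost the call, 6 gained it and 3 changed sign. The causes were not tested. No paired analysis was possible because no replicate number was shared between the groups, and the litter was in the model. The 2 or 3 embryos per genotype and litter limit the precision, and the lowest level of any of the 9 genes was 7.59 CPM.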

Other observations

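The other *Sox* genes, listed by family membership, were described in the same fits. Of 9 tested, 0 were higher and 0 lower by genotype in the quasi-likelihood test of edgeR, and the lowest Benjamini-Hochberg adjusted p was 0.200 for *Sox8* (log2 fold change 0.18). In litter 2 alone *Sox10* was higher in the embryos labelled *Dot1l*-cKO (0.79, adjusted p = 6.5e-04), and in litter 1 alone it was at -0.06 (adjusted p = 0.916), by edgeR with Benjamini-Hochberg adjustment. The difference between litters was 0.85 (adjusted p = 0.441, same test). By litter, *Sox9*, a gene of progenitors and later of glia and cartilage, was higher in litter 2 (log2 fold change 0.68, standard error 0.10, adjusted p = 1.5e-04), as was *Sox13*, the third SoxD gene (0.24, adjusted p = 0.0100), by the same test. *Sox8* was lower (-0.47, adjusted p = 4.2e-04, same test). *Sox10*, *Sox17* and *Sox18* of this list are also markers of Schwann cell precursors or endothelium.

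*Sox12* lies on chromosome 2, 2.16 Mb from *E2f1*, the gene at which the strain name puts the Wnt1-cre2 transgene. Of the 36 tested genes between *Sox12* and *E2f1*, 4 were called higher and 0 lower in the embryos labelled *Dot1l*-cKO, against 1.90% and 1.09% of all tested genes. The part of the transgene was not tested.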
